A study of Mus musculus with 8 samples.

Results

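The genes described here are 34 genes of the cell cycle and DNA replication, measured in laser-captured, Sertoli-cell-rich areas of the mouse testis after exposure to di-(2-ethylhexyl) phthalate (DEHP), a plasticiser. They were listed by name for their known roles: no measured value enters the rule, but the list was drawn up with earlier results of these data known. It holds 12 genes of DNA replication, 12 cyclins, cyclin-dependent kinases and the kinase inhibitor p27, and 10 genes of mitosis. All 34 had at least 1 probe well above background in at least 4 of the 8 channels of a treatment group, among 16970 genes that met this rule, and each gene is represented by its brightest such probe. DEHP-treated mice were male C57BL/6J aged 21 weeks that received 200 mg/kg/day in corn oil by gavage for 21 days, and vehicle mice of the same strain, sex and age received corn oil alone, with 4 mice per group. RNA of each mouse came from 1 capture cap and was amplified in 2 rounds. Each DEHP mouse was set against 1 vehicle mouse on 2 arrays with the dyes swapped, which gives 8 arrays and 4 independent pairs. The number of a pair is that of its DEHP mouse, and the vehicle mice in pairs 1 to 4 were vehicle mice 2, 3, 4 and 1. A ratio is the log2 of DEHP over vehicle, averaged over both dye orientations, and a level is the log2 normalised intensity of 1 mouse, which can be compared between mice for 1 gene but not between genes.

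A cell that divides copies its DNA once, after a ring of MCM proteins has been loaded on each origin by Cdc6 and Cdt1, and geminin blocks a second loading. Cyclins switch cyclin-dependent kinases on in turn: D cyclins drive the exit from G1, E and A cyclins drive DNA synthesis, and B cyclins drive mitosis, which Aurora and Polo kinases carry out and Cdc20 ends by switching on the anaphase-promoting complex. In the adult testis, Sertoli cells have left the cell cycle, whereas spermatogonia divide by mitosis and spermatocytes run DNA replication and 2 meiotic divisions.

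None of the 34 genes passed the test for a difference between DEHP and vehicle mice. With limma's moderated test and Benjamini-Hochberg adjustment over 22975 probes, 0 probes (0%) had an adjusted p under 0.05, the smallest adjusted p was 0.903, and 1054 probes had an unadjusted p under 0.05. Under the same limma test, 1 of the 34 genes, Gmnn, had an unadjusted p under 0.05, against 4.8% of all 16970 genes (2.47% higher and 2.33% lower). The ratio was below 0 in 25 of the 34 genes (73.5%), against 50.1% of all genes: in 10 of 12 replication genes, 10 of 12 cyclin genes and 5 of 10 mitosis genes. These were small differences, with a median ratio of -0.050 over the 34 genes and -0.000095 over all genes. Only Mcm4 was lower in all 4 pairs, against 6.89% of all genes, and only Gmnn was higher in all 4 pairs, against 6.68%. For none of the 34 genes did the 4 DEHP mice all lie below the 4 vehicle mice (1.04% of all genes did) or all above them (0.725% of all genes did). The 95% interval of a gene's ratio had a median width of 0.47 log2 units over the 34 genes and 0.38 over all genes. The share of genes below 0 depended on pair 3 and on the normalisation. Without pair 3, 16 of 34 genes were below 0 and the median was 0.0019. With median centring in place of loess, 18 of 34 were below 0 and the median was -0.0099, and without pair 4 the values were 28 of 34 and -0.094.

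The number of arrays limits the precision. Between 49.8% and 59.5% of spots per channel were well above background, no spot was saturated, and slide and dye orientation cannot be told apart, because each slide carried only 1 of the orientations. Vehicle mouse 1 stood apart from the other mice over the whole array: it had the lowest level of the 8 mice for 22.8% of 16949 genes with a value in every mouse and the highest for 20.5%, while the other mice were lowest for 6.51% to 14.7% and highest for 5.48% to 15.9%. Among the 34 genes, vehicle mouse 1 was lowest for 13 (38.2%) and highest for 4 (11.8%), and DEHP mouse 3 was lowest for 9 (26.5%, against 14.7% of all genes). Means that moved by over 1.5 times without pair 4, which holds vehicle mouse 1, are given with and without that pair. Of 20 Sertoli markers, 18 were measured (Gata4 and Dmrt1 were not well above background in enough channels), with a summed normalised intensity of 58925 to 76101 in DEHP mice and 50097 to 70397 in vehicle mice. Germ cell markers were measured as well: 9 of 14 for spermatogonia, 17 of 19 for spermatocytes, 11 of 11 for round spermatids and 9 of 9 for elongating spermatids. One label describes the captured tissue as the intermediate layer of the tubule epithelium while the extraction protocol speaks of Leydig cells. Of 8 Leydig markers, 4 were measured, and Cyp11a1, Hsd3b6, Hsd17b3 and Lhcgr were not well above background in enough channels. In such mixed samples, fewer cells of a type and less RNA per cell cannot be told apart.

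In the promoter windows, E2F cores were found most often among replication genes and CHR sites most often among mitosis genes, while CCAAT and GC boxes were found in most genes of each group. The differences between groups were not tested. Windows from 250 bases before to 50 bases after the RefSeq transcription start (GRCm38.p6) were matched for 27 of the 34 genes. The core of an E2F site was searched on both strands in 4 forms. The first form was TTGGCGC, and the second form was TTGCCGC. The third form was TTCGCGC, and the fourth form was TTCCCGC. Such a core was found in 8 of 10 replication genes, 2 of 8 cyclin genes and 1 of 9 mitosis genes, and in 17.2% of the measured genes with a window. The cell cycle genes homology region (CHR, TTTGAA on either strand), which is known from genes that peak in G2 and mitosis, was found in 1 of 10 replication genes, 1 of 8 cyclin genes and 6 of 9 mitosis genes, and in 15.9% of the measured genes with a window. A CCAAT box (either strand) was present in 8 of 10, 6 of 8 and 7 of 9 genes, and in 42.5% of the measured genes, and a GC box (GGGCGG, either strand) in 7 of 10, 8 of 8 and 7 of 9, and in 60.1% of the measured genes. A match is a stretch of letters and no evidence of binding. The 150 bases before the start are printed here for a pair of Mcm genes with E2F cores, for Mki67, whose window holds both kinds of site, and for the 3 mitosis genes whose levels spanned the widest range over the 8 mice. Capitals mark E2F cores, CCAAT boxes and CHR sites on either strand, 5′ to 3′ along the gene's strand.
Mcm6, chr1:128359706-128359855, minus strand: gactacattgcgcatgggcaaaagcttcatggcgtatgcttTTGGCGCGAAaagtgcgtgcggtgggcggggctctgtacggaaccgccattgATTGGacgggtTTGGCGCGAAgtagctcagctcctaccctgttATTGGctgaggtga
Mcm5, chr8:75109359-75109508, plus strand: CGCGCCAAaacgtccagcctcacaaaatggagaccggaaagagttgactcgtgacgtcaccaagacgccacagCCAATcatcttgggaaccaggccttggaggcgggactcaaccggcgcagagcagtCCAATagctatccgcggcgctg
Mki67, chr7:135716380-135716529, minus strand: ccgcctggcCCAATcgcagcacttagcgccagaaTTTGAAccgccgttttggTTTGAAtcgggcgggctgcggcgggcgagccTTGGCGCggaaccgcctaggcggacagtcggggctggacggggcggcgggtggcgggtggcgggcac
Cdc20, chr4:118437344-118437493, minus strand: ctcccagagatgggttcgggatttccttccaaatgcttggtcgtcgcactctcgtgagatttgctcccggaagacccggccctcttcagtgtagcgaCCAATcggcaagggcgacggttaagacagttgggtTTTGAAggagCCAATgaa
Plk1, chr7:122159285-122159434, plus strand: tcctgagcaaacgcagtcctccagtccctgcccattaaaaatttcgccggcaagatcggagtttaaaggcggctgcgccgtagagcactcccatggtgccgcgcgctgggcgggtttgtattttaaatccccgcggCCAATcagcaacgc
Aurka, chr2:172370571-172370720, minus strand: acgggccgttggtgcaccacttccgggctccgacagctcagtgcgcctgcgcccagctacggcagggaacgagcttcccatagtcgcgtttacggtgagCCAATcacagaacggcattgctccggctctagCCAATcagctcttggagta
In Mcm6 an E2F core on one strand overlaps another on the opposite strand at 2 places. The CHR matches of Plk1 and Aurka lie outside the printed bases, so that only CCAAT boxes are in capitals there.

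Among the replication genes, the MCM helicase subunits had ratios close to 0 or slightly below it. Mcm4, a subunit of the helicase (probe at chr16:15163918-15163977 in mm7, minus strand), had levels of 9.45, 9.76, 9.47 and 9.84 in DEHP mice 1 to 4 and 9.97, 9.65, 9.76 and 9.57 in vehicle mice 1 to 4. The groups overlapped, and the highest of the 8 mice was vehicle mouse 1. Its ratios in pairs 1 to 4 were -0.20, -0.0077, -0.11 and -0.12, with a mean of -0.11 ± 0.080 (SD, n = 4 pairs; limma, unadjusted p = 0.0794, adjusted p = 0.903). The ratio of Mcm4 turned with the dye: it was 0.078 on the arrays with DEHP in Cy5 and -0.30 on those with DEHP in Cy3. Mcm7, another subunit, had levels of 13.09, 13.04, 13.28 and 13.05 in DEHP mice and 12.91, 13.34, 13.38 and 13.49 in vehicle mice. Vehicle mouse 1 was the lowest of the 8 for Mcm7 and the other 3 vehicle mice were the highest. The ratios of Mcm7 were -0.25, -0.34, -0.21 and 0.15, with a mean of -0.16 ± 0.21 (SD, n = 4). The mean was -0.27 without pair 4, -0.0098 with median centring, -0.29 with DEHP in Cy5 alone and -0.039 with DEHP in Cy3 alone. The means of the other subunits were -0.037 ± 0.11 for Mcm2, -0.076 ± 0.30 for Mcm3, -0.071 ± 0.22 for Mcm5 and -0.13 ± 0.18 for Mcm6 (SD, n = 4 pairs). In pair 3 the ratios of these 4 were between -0.49 (Mcm3) and -0.20 (Mcm2), the lowest of the 4 pairs for each, and in the other pairs they lay on both sides of 0. Without pair 3 the means were 0.017 for Mcm2, 0.061 for Mcm3, 0.030 for Mcm5 and -0.065 for Mcm6, and without pair 4 they were -0.064 for Mcm2 and -0.12 for Mcm5. The probe of Mcm2 was dim, and its mean was -0.22 from the ratios of the Agilent software.

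Pcna, the sliding clamp that holds polymerases on DNA, had levels of 13.81, 13.33, 13.89 and 13.41 in DEHP mice and 13.87, 13.69, 13.80 and 13.96 in vehicle mice. DEHP mice 2 and 4 were the lowest of the 8, and DEHP mice 1 and 3 lay among the vehicle mice. The ratios were 0.11, -0.46, -0.078 and -0.45, with a mean of -0.22 ± 0.29 (SD, n = 4; 95% interval -0.52 to 0.084). Its 2 dye orientations differed by 0.27 to 0.36 in every pair, and the mean was -0.069 with DEHP in Cy5 alone and -0.37 with DEHP in Cy3 alone. It was -0.055 after median centring and -0.14 without pair 4. Gmnn, which encodes geminin, the inhibitor of origin licensing (probe at chr13:24117785-24117844 in mm7, minus strand), had levels of 13.82, 13.65, 13.55 and 13.45 in DEHP mice and 13.42, 13.62, 13.49 and 13.36 in vehicle mice. DEHP mouse 1 was the highest and vehicle mouse 4 the lowest, and the groups overlapped. The ratio was above 0 in each pair, at 0.21, 0.15, 0.19 and 0.033, with a mean of 0.15 ± 0.078 (SD, n = 4; limma, unadjusted p = 0.0315, adjusted p = 0.903), and above 0 in both dye orientations (0.18 and 0.11).

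The licensing factors Cdc6 and Cdt1 had means of -0.012 ± 0.21 and -0.083 ± 0.21 (SD, n = 4), and the ratio of Cdt1 was -0.40 in pair 3 and between 0.0059 and 0.050 in the others. Rrm1 and Rrm2 encode the subunits of ribonucleotide reductase, which makes deoxyribonucleotides. Their means were -0.0087 ± 0.35 and 0.073 ± 0.29 (SD, n = 4). Vehicle mouse 1 was the lowest of the 8 mice for both, at 12.13 and 7.55, and pair 4 had the highest ratio of the 4 pairs for both, at 0.46 and 0.50. Without pair 4 the means were -0.16 for Rrm1 and -0.069 for Rrm2, which was then below 0, and -0.095 for Cdc6. Without pair 3 the mean of Cdt1 was 0.022. Over the 12 replication genes the median ratio was -0.074, with pair medians of 0.037, -0.022, -0.16 and 0.038. It was 0.014 without pair 3 and -0.10 without pair 4.

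**Figure D1:**
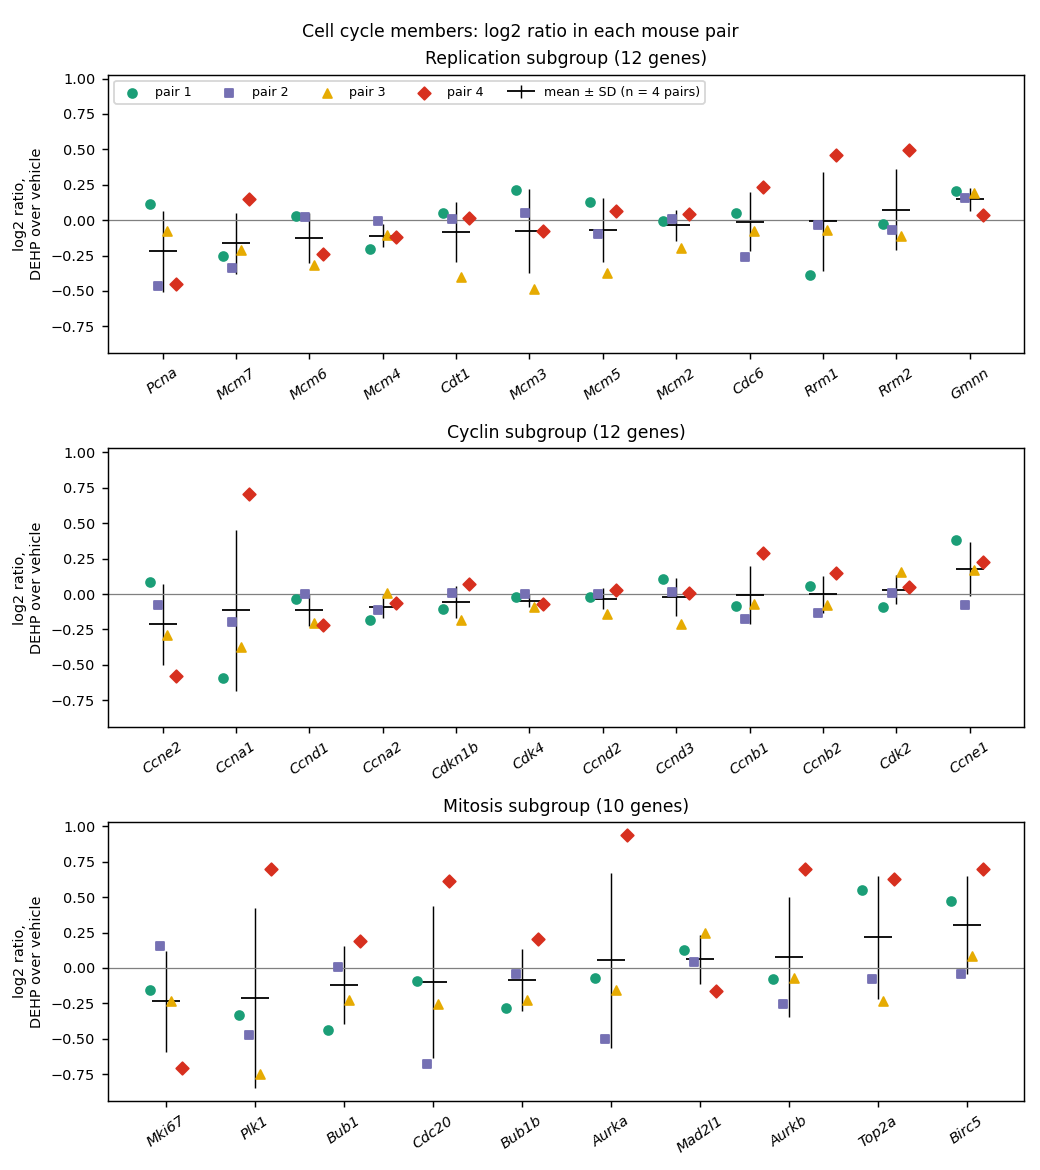
Log2 ratio of DEHP over vehicle (vertical axis) for the 34 genes in each of the 4 mouse pairs, in 3 panels by group, ordered by mean; points are pairs and black bars the mean with its SD (n = 4 pairs). Most genes scatter around 0, and pair 4 (red diamonds) lies above the other pairs for Plk1, Cdc20, Aurka, Aurkb and Ccna1 and below them for Mki67 and Ccne2.

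Of the D cyclins, which link growth signals to Cdk4, Ccnd1 and Ccnd2 were close to background and Ccnd3 was not. Ccnd1 was well above background in 5 of 8 DEHP channels and 7 of 8 vehicle channels, Ccnd2 in 4 and 6, and Cdk2, the kinase partner of cyclins E and A, in 4 and 3, so their ratios rest on signals close to background and may be pulled toward 0. Ccnd1 had levels of 7.14, 7.09, 7.02 and 7.01 in DEHP mice and 7.23, 7.17, 7.09 and 7.23 in vehicle mice, with DEHP mice 3 and 4 lowest and vehicle mice 1 and 4 highest. Its ratios were -0.035, 0.0017, -0.21 and -0.22, with a mean of -0.11 ± 0.11 (SD, n = 4). From the ratios of the Agilent software the mean was -0.56 (limma, unadjusted p = 0.0172, adjusted p = 0.928). Ccnd2 had levels of 7.04, 7.05, 6.98 and 7.14 and 7.10, 7.06, 7.05 and 7.11, with DEHP mice at both ends of the range. The ratios of Ccnd2 were -0.022, 0.00030, -0.14 and 0.031, with a mean of -0.032 ± 0.074 (SD, n = 4), -0.22 from the Agilent ratios and -0.053 without pair 4. Ccnd3 was well above background in every channel, with levels of 8.56, 8.61, 8.23 and 8.56 in DEHP mice and 8.56, 8.46, 8.60 and 8.44 in vehicle mice. DEHP mouse 3 was the lowest, and the other 3 DEHP mice lay among or just above the vehicle mice. Its ratios were 0.10, 0.012, -0.21 and 0.0042, with a mean of -0.022 ± 0.13 (SD, n = 4). Cdk4 had a mean of -0.046 ± 0.044 and Cdk2 of 0.030 ± 0.10 (SD, n = 4). The probe of Cdk4 was dim though well above background in every channel, and its mean was -0.18 from the Agilent ratios.

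Cdkn1b encodes p27, the inhibitor that holds mature Sertoli cells out of the cycle. Its levels were 7.30, 7.38, 7.30 and 7.43 in DEHP mice and 7.36, 7.40, 7.37 and 7.49 in vehicle mice, with DEHP mice 1 and 3 lowest and vehicle mouse 4 highest. The ratios of Cdkn1b were -0.11, 0.0059, -0.19 and 0.070, with a mean of -0.054 ± 0.11 (SD, n = 4; 95% interval -0.21 to 0.097), and -0.096 without pair 4. This probe was dim, and its mean was -0.12 from the Agilent ratios. The other probes of Cdkn1b were not well above background in any channel. The E cyclins, which start DNA synthesis with Cdk2, had means on opposite sides of 0. Ccne1 had levels of 10.47, 10.15, 10.25 and 10.09 in DEHP mice and 9.86, 10.09, 10.23 and 10.08 in vehicle mice, with DEHP mouse 1 highest and vehicle mouse 1 lowest. Its ratios were 0.38, -0.079, 0.17 and 0.23, with a mean of 0.18 ± 0.19 (SD, n = 4), and a second, dimmer probe gave 0.0085 ± 0.057. The mean of Ccne1 was 0.33 with DEHP in Cy5 alone and 0.016 with DEHP in Cy3 alone. Ccne2 had levels of 8.16, 8.24, 8.33 and 7.96 and 8.53, 8.08, 8.32 and 8.61, with vehicle mice 1 and 4 highest and DEHP mouse 4 lowest. Its ratios were 0.086, -0.076, -0.29 and -0.58, with a mean of -0.21 ± 0.29 (SD, n = 4), and a second probe gave -0.10 ± 0.25. The mean of Ccne2 was -0.050 with DEHP in Cy5 alone, -0.38 with DEHP in Cy3 alone and -0.093 without pair 4. Both means were smaller than the SD between pairs: the limma unadjusted p was 0.0902 for Ccne1 and 0.129 for Ccne2.

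Ccna1, the cyclin of spermatocytes that is needed for their meiotic division, had levels of 11.45, 11.53, 11.42 and 11.84 in DEHP mice and 11.13, 12.04, 11.73 and 11.79 in vehicle mice. Vehicle mouse 1 was the lowest of the 8, and vehicle mouse 2 the highest. The ratios were therefore far apart, at -0.59, -0.20, -0.37 and 0.70, with a mean of -0.11 ± 0.57 (SD, n = 4), and -0.39 without pair 4. Ccna2, the A cyclin of mitotic cells, had levels of 7.94, 7.94, 7.95 and 7.94 in vehicle mice and 7.76, 7.83, 7.94 and 7.88 in DEHP mice. DEHP mice 1, 2 and 4 were below the 4 vehicle mice and DEHP mouse 3 was among them. The ratios of Ccna2 were -0.18, -0.12, 0.0040 and -0.060, with a mean of -0.089 ± 0.080 (SD, n = 4; limma, unadjusted p = 0.134, adjusted p = 0.903). The mean of Ccna2 was -0.20 with no background correction, -0.27 from the Agilent ratios and -0.37 in the authors' deposited table, and -0.011 with DEHP in Cy5 alone. The B cyclins Ccnb1 and Ccnb2, partners of Cdk1 at entry into mitosis and meiosis, had means of -0.010 ± 0.20 and -0.0028 ± 0.13 (SD, n = 4), and vehicle mouse 1 had the lowest level of both. Without pair 4 these means were -0.11 and -0.053. The other kept probes of Ccnb1 gave 0.047 ± 0.18 and 0.010 ± 0.20. Over the 12 cyclin genes the median ratio was -0.039, with pair medians of -0.029, -0.038, -0.12 and 0.040.

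Among the mitosis genes, Aurka, Aurkb, Plk1 and Cdc20 had wide spreads between vehicle mice, with SDs of 0.49, 0.36, 0.45 and 0.39, while Mad2l1 and Top2a had SDs of 0.057 and 0.12. Between DEHP mice the SDs were 0.16, 0.18, 0.29 and 0.22 for Aurka, Aurkb, Plk1 and Cdc20, 0.16 for Mad2l1 and 0.32 for Top2a. Values by mouse are printed for Aurka, Aurkb, Plk1 and Cdc20 because of the spread seen in them, that is, after their values were known. Aurka encodes the kinase of the spindle poles (probe at chr2:172148888-172148947 in mm7, minus strand), with levels of 15.32, 15.08, 15.09 and 15.39 in DEHP mice and 14.46, 15.39, 15.58 and 15.25 in vehicle mice. Vehicle mouse 1 was below each of the other 7 mice, which overlapped between groups. The ratios of Aurka were -0.069, -0.50, -0.16 and 0.94, with a mean of 0.053 ± 0.62 (SD, n = 4), and -0.24 without pair 4. Aurkb, the kinase of the chromosome passenger complex, had levels of 8.84, 8.45, 8.71 and 8.80 and 8.10, 8.91, 8.70 and 8.78, and vehicle mouse 1 was again the lowest of the 8. Its ratios were -0.075, -0.25, -0.072 and 0.70, with a mean of 0.074 ± 0.42 (SD, n = 4), and -0.13 without pair 4.

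Plk1, the Polo kinase of mitotic entry and spindle assembly (probe at chr7:118093971-118094030 in mm7, plus strand), had levels of 10.52, 10.06, 10.01 and 10.55 in DEHP mice and 9.85, 10.85, 10.54 and 10.77 in vehicle mice. Vehicle mouse 1 was the lowest, DEHP mice 2 and 3 the next, and vehicle mice 2 and 4 the highest. The ratios of Plk1 were -0.33, -0.48, -0.75 and 0.70, with a mean of -0.21 ± 0.63 (SD, n = 4), and -0.52 without pair 4. Cdc20, the activator of the anaphase-promoting complex, had levels of 14.13, 13.66, 14.00 and 14.11 and 13.49, 14.22, 14.33 and 14.25. The 3 other vehicle mice were above all 4 DEHP mice, and vehicle mouse 1 was below them. Its ratios were -0.090, -0.68, -0.25 and 0.61, with a mean of -0.10 ± 0.54 (SD, n = 4), and -0.34 without pair 4. With limma the unadjusted p of these 4 genes ran from 0.43 (Plk1) to 0.835 (Aurka) over all pairs. In a fit of the separate channels that leaves out vehicle mouse 1 and keeps the other 7 mice, the differences were -0.18 for Aurka, -0.10 for Aurkb, -0.43 for Plk1 and -0.29 for Cdc20, and no probe of the 34 genes had an adjusted p under 0.05.

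**Figure D2:**
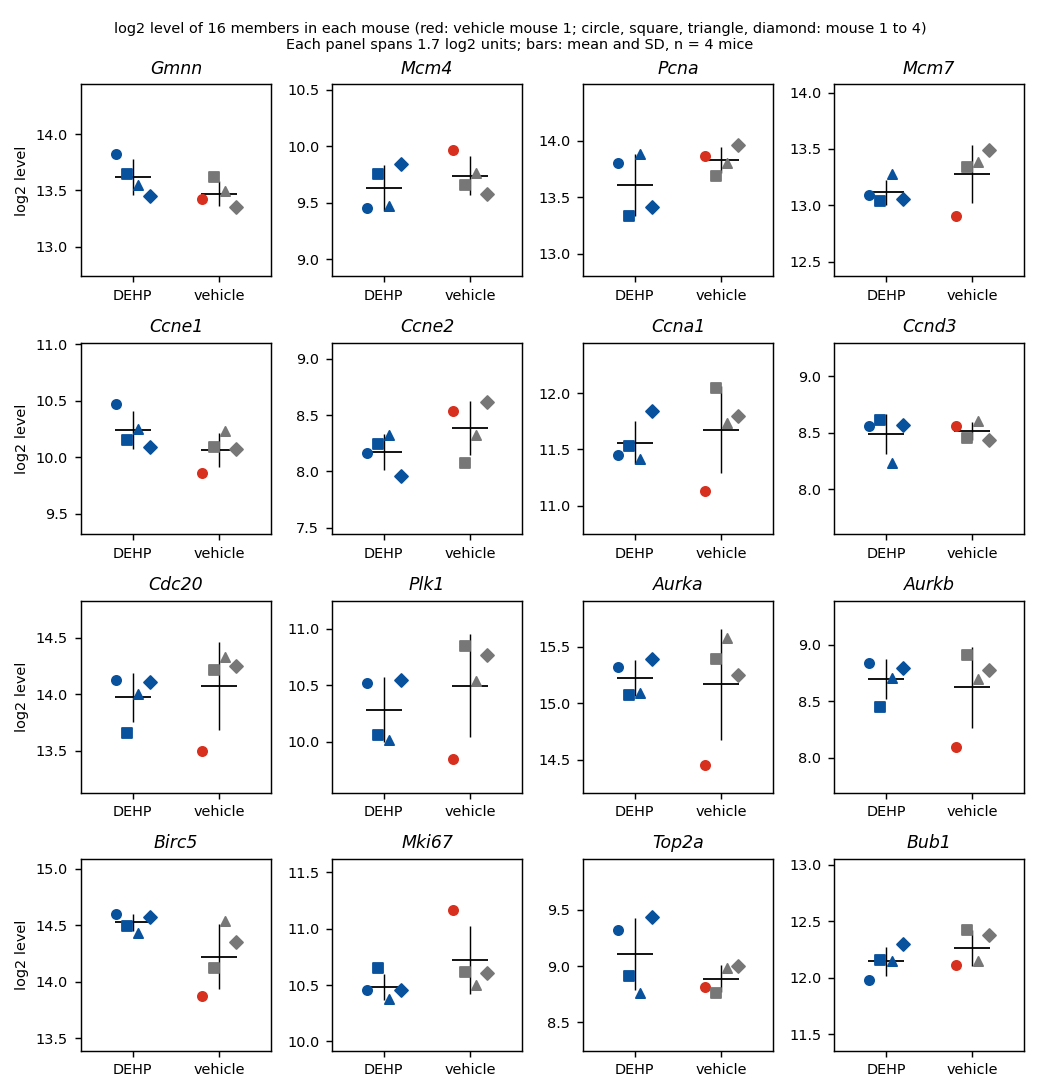
Log2 level (vertical axis, with the same span in every panel) of 16 of the 34 genes in each DEHP mouse (blue) and vehicle mouse (grey, with vehicle mouse 1 in red); bars are the mean and SD over 4 mice. Vehicle mouse 1 is the lowest of the 8 mice for Aurka, Aurkb, Plk1, Cdc20, Ccna1, Ccne1, Mcm7 and Birc5 and the highest for Mki67 and Mcm4.

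Mki67, the proliferation marker, went the other way in this mouse. Its levels were 10.46, 10.65, 10.38 and 10.46 in DEHP mice and 11.17, 10.61, 10.50 and 10.61 in vehicle mice, with vehicle mouse 1 the highest of the 8 and DEHP mouse 3 the lowest. The ratios of Mki67 were -0.16, 0.15, -0.23 and -0.71, with a mean of -0.24 ± 0.36 (SD, n = 4), and -0.079 without pair 4, and a second probe gave -0.11 ± 0.19. Birc5, or survivin, a subunit of the passenger complex, had levels of 14.60, 14.49, 14.43 and 14.57 in DEHP mice and 13.87, 14.13, 14.54 and 14.35 in vehicle mice. The 4 DEHP mice lay close together and vehicle mouse 3 lay among them, while the other 3 vehicle mice were lower. The ratios of Birc5 were 0.48, -0.043, 0.081 and 0.70, with a mean of 0.30 ± 0.34 (SD, n = 4; limma, unadjusted p = 0.0818, adjusted p = 0.903), and 0.17 without pair 4. Top2a, the topoisomerase that untangles sister chromatids, had levels of 9.32, 8.91, 8.76 and 9.44 in DEHP mice and 8.81, 8.76, 8.99 and 8.997 in vehicle mice. DEHP mice 1 and 4 were the highest of the 8 and DEHP mouse 3 the lowest. Its ratios were 0.55, -0.078, -0.23 and 0.62, with a mean of 0.22 ± 0.44 (SD, n = 4), and 0.080 without pair 4.

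The spindle checkpoint genes had ratios on both sides of 0. Bub1, a checkpoint kinase, had levels of 11.98, 12.15, 12.15 and 12.30 in DEHP mice and 12.11, 12.42, 12.14 and 12.38 in vehicle mice, with DEHP mouse 1 and vehicle mouse 1 lowest. The ratios of Bub1 were -0.44, 0.0092, -0.23 and 0.19, with a mean of -0.12 ± 0.27 (SD, n = 4), and -0.22 without pair 4. Bub1b and Mad2l1, which hold back Cdc20 until chromosomes are attached, had means of -0.087 ± 0.22 and 0.062 ± 0.17 (SD, n = 4), and -0.18 and 0.14 without pair 4. The mean of Bub1b, a dim probe, was -0.20 with no background correction, -0.41 from the Agilent ratios and -0.38 in the authors' deposited table. The mean of Mad2l1 was 0.11, 0.16 and 0.15 in the same settings. Over the 10 mitosis genes the median ratio was -0.017, with pair medians of -0.082, -0.061, -0.23 and 0.62, so that pair 4 alone was above 0. Without pair 4 the median was -0.16, and without pair 2 it was 0.080. The median SD between vehicle mice was 0.29 for the mitosis genes, 0.18 for the replication genes and 0.072 for the cyclin genes, and 0.13 for all genes. Between DEHP mice it was 0.16, 0.16 and 0.075, and 0.12 for all genes.

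Vehicle mouse 1 was also the highest mouse for some lists of cell type markers, as it was the lowest or highest for many genes over the whole array. For each mouse, the level of each gene was taken relative to its mean over the 8 mice, and the median over a gene list gave the mouse's offset. For the mitosis genes the offsets were 0.12, -0.070, -0.079 and 0.11 in DEHP mice 1 to 4 and -0.34, 0.19, 0.039 and 0.061 in vehicle mice 1 to 4. Vehicle mouse 1 was the lowest of the 8, and the other 3 vehicle mice were above 0. Over 27 spindle and kinetochore genes vehicle mouse 1 stood out less, at -0.109, beside -0.107 in DEHP mouse 3. For round spermatid markers the offset of vehicle mouse 1 was 0.25, the highest of the 8 mice. For spermatocyte and spermatogonia markers it was 0.10 and 0.080, also the highest. For elongating spermatid, Sertoli and Leydig markers its offsets were -0.085, -0.047 and 0.31, each inside the range of the other mice. The summed intensity of round spermatid markers was 160197 to 176597 in DEHP mice and 146396 to 200818 in vehicle mice, and that of spermatocyte markers 255131 to 286736 in DEHP mice and 242778 to 294876 in vehicle mice, with vehicle mouse 1 at the top of both. That of spermatogonia markers was 11853 to 13551 in DEHP mice and 11541 to 14484 in vehicle mice. There vehicle mouse 2 was the highest, and vehicle mouse 1 was at 13728. That of Leydig markers was 3066 to 11417 in DEHP mice and 3241 to 11300 in vehicle mice. The part of cell composition in the levels of the mitosis genes was not tested.

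**Figure D3:**
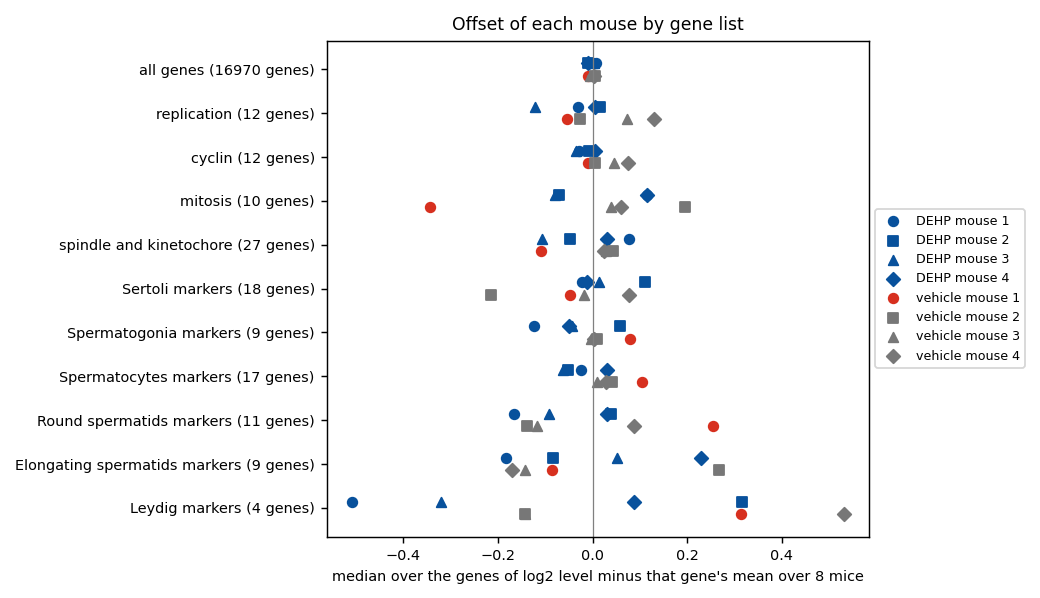
Offset of each mouse (horizontal axis, median over the genes of a list of the log2 level minus that gene's mean over 8 mice) for the 3 groups of members, spindle genes and cell type markers; blue points are DEHP mice, grey points vehicle mice and red points vehicle mouse 1. For the mitosis genes vehicle mouse 1 lies at -0.34 and the other 7 mice between -0.079 and 0.19.

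Genes around the members in the same pathways gave 0 adjusted p under 0.05 in each list (limma; smallest adjusted p 0.903), and their counts at an unadjusted p under 0.05 (limma) are given by direction, beside 2.47% of all genes higher and 2.33% lower. Of 19 measured partners of origins and the helicase, 1 was higher and 2 were lower, with a median ratio of -0.026. Timeless, of the fork protection complex, had -0.25 ± 0.16 and Gins4, of the GINS part of the helicase, 0.15 ± 0.082 (SD, n = 4). Of 26 genes of the replication fork and nucleotide supply, 1 was higher and 0 were lower, with a median of 0.035; Chaf1b, of the chromatin assembly factor, had 0.18 ± 0.11 and Pole2, of polymerase epsilon, 0.11 ± 0.10. The E2F and RB list (19 genes) had 0 higher and 1 lower, with a median of -0.035. In it E2f7, a repressing E2F, had -0.15 ± 0.094 and Rbl1, the pocket protein p107, -0.16 ± 0.16. The 6 CDK inhibitors measured beside Cdkn1b had 0 in either direction and a median of 0.020, with Cdkn1c at 0.20 ± 0.36 and Cdkn3 at 0.13 ± 0.36.

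Among 17 other cyclin-dependent kinases, CDC25 phosphatases and their regulators, 0 were higher and 1 was lower, with a median of -0.0035. That gene was Wee1, the kinase that restrains Cdk1 before mitosis, with ratios of -0.37, -0.20, -0.41 and -0.14 in pairs 1 to 4 and a mean of -0.28 ± 0.13 (SD, n = 4; limma, unadjusted p = 0.00708, adjusted p = 0.903). Fbxw7, which marks cyclin E for degradation, had -0.10 ± 0.079. Of 27 spindle and kinetochore genes, 1 was higher and 0 were lower, with a median of -0.0027. Aurkc, the Aurora kinase of meiosis, had 0.29 ± 0.21 and Nek2, a centrosome kinase, -0.34 ± 0.50, and pair 4 of Nek2 was at 0.32 against -0.89 to -0.39 in the others. Of 26 genes of the anaphase-promoting complex, cohesin and condensin, 0 were higher and 1 was lower, with a median of -0.020. The cohesin subunits Rad21 and Smc3 had -0.46 ± 0.41 and -0.51 ± 0.52 (SD, n = 4), with pair 4 lowest for both, at -0.98 and -1.24.

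The 5 genes outside the members whose ratios over the 4 pairs came nearest to the members' pair medians (-0.024, -0.044, -0.17 and 0.068) were Ppm1a, Cbx8, Prdx1, Nkd1 and Ap3d1. Their root mean square distances were 0.010, 0.018, 0.019, 0.020 and 0.022 log2 units over 4 pairs.

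Under the other ways of processing the data, the replication median was between -0.12 and 0.014 and the cyclin median between -0.14 and -0.011 over 19 alternatives each, and the mitosis median between -0.24 and 0.080. The -0.24 came from the authors' deposited ratios, which had values for 5 of the 10 mitosis genes. With DEHP in Cy5 alone the replication, cyclin and mitosis medians were -0.053, -0.026 and -0.019, beside 0.013 for all genes, and with DEHP in Cy3 alone they were -0.085, -0.043 and -0.0012, beside -0.012. The authors' deposited table gave values for 23 of the 34 genes (Ccnb1 through a dimmer probe), of which 16 were below 0.

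**Figure D4:**
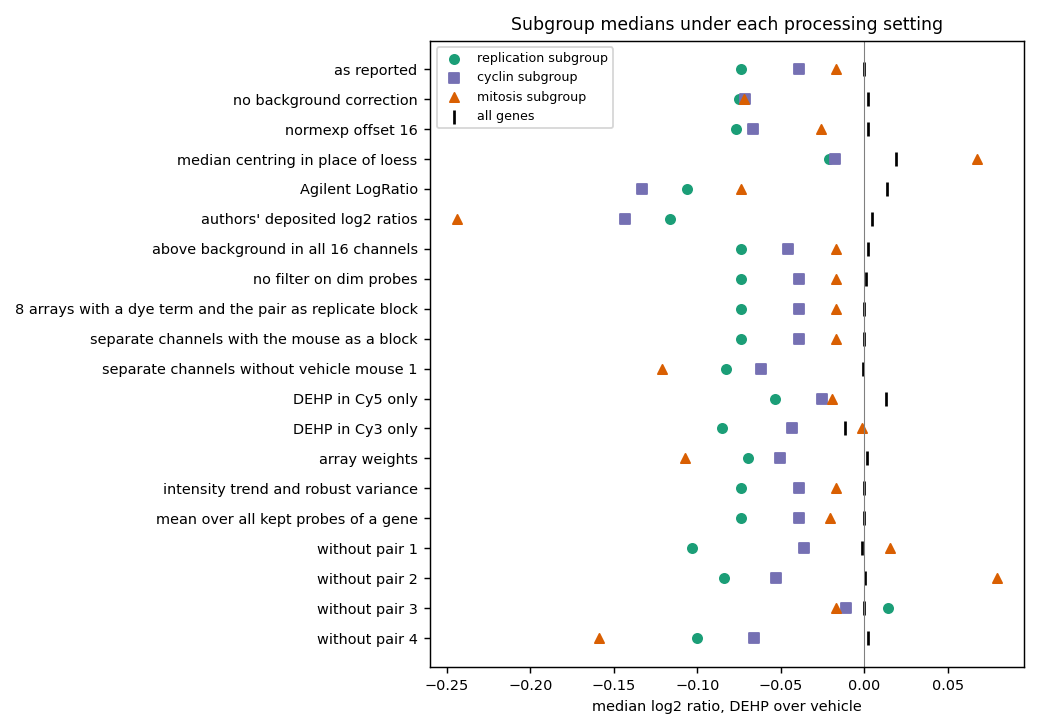
Median log2 ratio of the replication (green circles), cyclin (purple squares) and mitosis (orange triangles) genes and of all genes (black ticks) under the reported setting (top) and each alternative. The cyclin median is below 0 in every one of the settings drawn, the replication median in all except without pair 3, and the mitosis median turns above 0 with median centring (0.068), without pair 1 (0.015) and without pair 2 (0.080).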

How the data were processed

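RNA from Sertoli-cell-rich areas of 4 DEHP and 4 vehicle mice was hybridised to 8 arrays with 2 colours. The intensity of each spot (mean foreground, median background) was deposited as scanned, and a log10 ratio (Cy5 to Cy3) was added by Agilent Feature Extraction 9.5.1.1, per the file headers. The log2 ratios the authors deposited carry the name limma in the submitters' processing notes, with further steps not given in the sources used here. They were matched to spots by row order and served as an alternative. Their correlation with the ratios computed here was 0.64 to 0.97 per array, and lowest on the arrays of pair 2 (0.64 and 0.82).

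Intensities were corrected by normexp (offset 50, which pulls ratios of dim probes toward 0), normalised by loess within arrays, averaged per probe and given the direction DEHP over vehicle. The arrays of a pair were averaged. Probes well above background in at least 4 of the 8 channels of a group were kept: 22975 of 41174. Limma 3.58.1 in R 4.3.3 (with statmod 1.5.0 and the package data.table, version 1.17.8) tested the 4 pair means, 2-sided, with Benjamini-Hochberg adjustment at 0.05. The fit was also run on simulated data with added shifts larger than any member's mean ratio. That run therefore says nothing on differences as small as those of the members. Of the probes, 8438 had no match to a current symbol. Levels were scaled between arrays (Aquantile) and averaged over both channels of a mouse.

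The members and gene lists were chosen with earlier results of these data known. Values by mouse were given for the 4 genes of smallest p per group and for Ccna1, Ccnd2, Ccnd3 and Cdkn1b. They were also given for Aurka, Aurkb, Plk1 and Cdc20, picked after their spread was seen. Of each pathway list the 2 genes of smallest p were named. The same-numbered arrays hold the same mice; their deviations correlated at 0.78 to 0.905. Between 154 and 209 outlier spots per array were left out. Alternatives covered background correction, normalisation, filters, dye, blocks and each pair left out.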

Additional observations from a re-analysis of the deposited data

Results flagged for a closer look

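In 6 of 114 groups of 4 values checked, 1 value lay far from the other 3 by Dixon's gap test, which chance does in about 1 of 20 groups. The ratio of Rrm2 was 0.50 in pair 4 and -0.11 to -0.025 in the others, and its level was 8.05 in DEHP mouse 4 and 7.90 to 7.92 in the other DEHP mice. The ratio of Cdt1 was -0.40 in pair 3 and 0.0059 to 0.050 in the others. The level of Ccnd3 was 8.23 in DEHP mouse 3 and 8.56 to 8.61 in the other DEHP mice. Cdk4 had a level of 7.42 in vehicle mouse 4 and 7.31 to 7.32 in the other vehicle mice. Cdc20 had a level of 13.49 in vehicle mouse 1 and 14.22 to 14.33 in the other vehicle mice.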

How the results depend on the processing

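No probe of the 34 genes was called under any alternative run. The unadjusted p of Gmnn (limma) was 0.0679 with a normexp offset of 16, 0.103 with the pair as replicate block and 0.216 with the Agilent ratio. It was 0.0134 with no filter on dim probes and 0.00968 with array weights. Which genes had an unadjusted p under 0.05 depended on the model. With the pair as replicate block 3 of the 34 genes did (limma), beside 1538 of 22975 probes: Birc5 (0.0193), Ccne1 (0.0392) and Pcna (0.0398). In separate channels with the mouse as a block 1 did, Birc5 (limma, 0.00965), beside 1202 probes. Over all probes, 0 were called under each of the other alternatives, and 9 (none of the 34 genes) in separate channels without vehicle mouse 1, an alternative added after seeing the data. The fit of 8 arrays with the pair as replicate block gave 0 calls too (smallest adjusted p 0.468) and the same members' median of -0.050; it changed no call. The cyclin median moved to -0.13 with the Agilent ratio and -0.14 (7 genes) with the deposited ratios, where 16 of 23 genes were below 0; there the mitosis median was -0.24 (5 genes). With median centring 18 of 34 genes were below 0, with a members' median of -0.0099. With 1 pair left out at a time, 16 (without pair 3) to 28 of 34 genes were below 0, and the medians ran from -0.094 to 0.0019 (members), -0.10 to 0.014 (replication), -0.066 to -0.011 (cyclin) and -0.16 to 0.080 (mitosis).

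Each of the 34 genes was recomputed under every alternative that gave it a value. Means that changed sign, none of them called, were: with no background correction, Ccnb2 (0.000063) and Aurkb (-0.045); with median centring, which moved the median of all genes to 0.019, Bub1 (0.011), Ccna1 (0.0051), Rrm1 (0.13), Cdc6 (0.060), Ccnb1 (0.13), Ccnb2 (0.17) and Cdc20 (0.076); with the Agilent ratio, Ccnd3 (0.016) and Aurkb (-0.018); with the deposited ratios, Ccnd3 (0.029), Rrm1 (0.0035) and Cdt1 (0.063); without vehicle mouse 1, Mcm3 (0.016), Rrm2 (-0.035), Aurka (-0.18) and Aurkb (-0.10); with DEHP in Cy5 only, Mcm4 (0.078), Mcm3 (0.017), Cdc6 (0.056), Ccnb1 (0.056), Ccnb2 (0.018) and Aurka (-0.0072); with DEHP in Cy3 only, Mcm2 (0.0091), Rrm1 (0.14), Rrm2 (-0.044), Cdk2 (-0.012) and Cdk4 (0.0070); with array weights, Rrm2 (-0.012), Aurka (-0.18) and Aurkb (-0.078); with all kept probes of a gene averaged, Ccnb1 (0.016). With 1 pair left out, the ranges that crossed 0 were -0.24 to 0.24 (Aurka), -0.13 to 0.18 (Aurkb), -0.39 to 0.044 (Ccna1), -0.11 to 0.046 (Ccnb1), -0.053 to 0.042 (Ccnb2), -0.053 to 0.0031 (Ccnd2), -0.064 to 0.040 (Ccnd3), -0.34 to 0.091 (Cdc20), -0.095 to 0.070 (Cdc6), -0.011 to 0.071 (Cdk2), -0.13 to 0.022 (Cdt1), -0.064 to 0.017 (Mcm2), -0.17 to 0.061 (Mcm3), -0.14 to 0.030 (Mcm5), -0.16 to 0.12 (Rrm1) and -0.069 to 0.13 (Rrm2). The causes were not tested. Ccnd1, Ccnd2 and Cdk2, near background, are limited by signal. Mcm2, Cdk4, Cdkn1b and Bub1b were well above background in every channel but dim. Their mean signals above background were 42.7, 42.7, 49.5 and 58.6, beside the offset of 50 that pulls ratios toward 0. Their means from the Agilent ratio were -0.22, -0.18, -0.12 and -0.41, against -0.037, -0.046, -0.054 and -0.087 as reported.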
